A study of Mus musculus with 2 samples.

Results

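Odd-row Helios+ cells were compared with even-row NK-receptor+ cells in 1 droplet library of sorted mouse thymocytes. Helios, encoded by Ikzf2, is an Ikaros family transcription factor that developing T cells switch on after strong T cell receptor (TCR) signals. The members were selected on measured UMIs (unique molecular identifiers, which count captured RNA molecules). Of 16179 deposited barcodes, 12147 held at least 1000 genes and at most 5% mitochondrial UMIs. Of these, 10007 carried at least 10 UMIs on hashtag rows 11 to 18 of the table with at least 80% of them on 1 row. An odd-row cell entered with at least 2 Ikzf2 UMIs, at least 1 UMI of Cd3d, Cd3e or Cd3g, and no UMI of Rag1, Rag2, Arpp21, Cd79a or Lyz2. This gave 800 of 4249 odd-row cells (18.8%). An even-row cell entered with at least 2 UMIs summed over Klrb1c, Nkg7 and Il2rb. This gave 5621 of 5758 even-row cells (97.6%).

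The study sorted invariant natural killer T (iNKT) cells, as TCRβ+ cells that bound CD1d tetramers, from the thymi of control (Ctrl) mice and of T-KO mice, in which floxed Kidins220 is deleted by Cre under the proximal Lck promoter, active in early thymocytes. The labels give the background as C57BL/6, and the Cre status of the Ctrl mice was not given in the sources used here. For each genotype 4 thymi were pooled and cells were sorted as stage 0, by CD24 without NK1.1, and as stage 3, by NK1.1 and CD44 without CD24. This was done in duplicate, and the methods do not make clear whether each duplicate had its own pool of thymi. The 8 hashtagged populations shared 1 library made with the 10x 5′ V(D)J chemistry. The study's methods give a range of ages over its experiments, but the mice's age was not given for this experiment in the sources used here. Cd24a, Cd44 and Klrb1c encode proteins used in the sort, and how far their RNA differences follow from it was not tested. The labels give odd-numbered hashtags to stage 0 and even-numbered ones to stage 3, but they number them 1 to 8. The UMIs lay on rows 11 to 18, and no source used here pairs the numberings. Groups are therefore named by row parity, and no row is given a genotype. The pairs are rows 11 and 12, 13 and 14, 15 and 16, and 17 and 18. The 4 rows of a group were populations of 1 library from pooled thymi, so every p-value measures the spread between hashtag populations, not between mice.

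In the thymus, iNKT cells arise from CD4+CD8+ thymocytes that rearranged the Trav11 and Traj18 segments of the TCR alpha chain and were selected by the lipid-presenting molecule CD1d on neighbouring thymocytes, with help from SLAM family receptors. Strong TCR signals during selection induce Egr and Nr4a factors, and the lineage factor PLZF (Zbtb16) follows. Mature stage 3 cells, mostly of the iNKT1 type, express T-bet (Tbx21), cytotoxic genes, and receptors shared with natural killer cells.

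Group sizes were unequal. Rows 11, 13, 15 and 17 gave 116, 339, 173 and 172 Helios+ cells with 682990, 2085872, 1123811 and 1089244 UMIs. Rows 12, 14, 16 and 18 gave 1729, 2113, 552 and 1227 NK-receptor+ cells with 5987280, 7185445, 2205577 and 4735383 UMIs. The Helios+ cells were deeper, with a median of 4777 UMIs and 2243 genes per cell against 3416 and 1585. The median UMI count was higher on the odd row of each of the 4 pairs (difference 1210 ± 355, SD over pairs; exact two-sided sign-flip test p = 0.13, the smallest p that 4 pairs allow). The Ikzf2 gate itself counts UMIs, and the 563 odd-row CD3+ cells below it had a median of 3166 UMIs. How much of the depth difference follows from the gate was not tested. Below, levels are UMIs per 1000000 of a row (CPM), given in the order of rows 11, 13, 15, 17 for Helios+ cells and then 12, 14, 16, 18 for even-row cells. Ranges give Helios+ cells first. Log2 folds are odd-row over even-row cells with their standard error, so that a negative value means higher in even-row cells.

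The gate genes themselves describe the choice and were not tested. Ikzf2 lay at 1146, 1178, 1332 and 1257 CPM in the Helios+ cells and at 37.0 to 39.9 CPM in the even-row cells. Of the Helios+ cells 80 had exactly 2 Ikzf2 UMIs, and 125 odd-row cells that met every other gate had exactly 1 and stayed outside. Of the NK-receptor+ cells 151 had exactly 2 NK-receptor UMIs, and 87 even-row cells had exactly 1 and stayed outside. Klrb1c, which encodes NK1.1, was at 4.59 to 13.2 CPM in Helios+ cells against 339 to 454 CPM. Il2rb, a chain of the interleukin-2 and interleukin-15 receptors, was at 284 to 412 CPM against 842 to 974 CPM, and Nkg7 at 123 to 192 against 1496 to 1609 CPM. Of the Helios+ cells 415 also passed the NK-receptor gate. Of the even-row cells 96 passed the Ikzf2 gate.

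Kidins220, the gene floxed in the study, was at 14.6, 26.8, 16 and 21.1 CPM against 28.4, 34.9, 17.2 and 20.1 CPM. The groups overlapped (log2 fold -0.61 ± 0.17, adjusted p = 0.0034), and since the sources used here do not say which 5′ tags the deletion leaves, these levels do not check any label.

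Row 11 stood apart from the other odd rows. It had the fewest Helios+ cells, 9.86% of its cells against 19.5 to 29.5% on the other odd rows, and more RNA of other cell types. The 10 B cell markers summed to 1802 CPM on row 11 against 253 to 467 CPM on rows 13, 15 and 17 and 491 to 570 CPM on the even rows. The most abundant was Cd74, an antigen-presentation chaperone (1697, 348, 139.7 and 147 CPM on the odd rows). The 12 myeloid and dendritic cell markers summed to 2666 CPM on row 11 against 379 to 552 and 905 to 979 CPM, led by Cst3 (1504, 233, 217 and 231 CPM). None of these markers was at 0 across either group. The part of such RNA in the results was not tested. Leaving out rows 11 and 12 gave 1138 genes called higher in Helios+ and 1173 in even-row cells, against 1057 and 1148 with them.

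RNA of the invariant TCR alpha chain was scarce in the Helios+ cells, although both labelled populations were sorted as iNKT cells. The study's methods report weak tetramer staining in this sort, and immature thymocytes among the sorted cells that its own processing removed. The share of such cells among the Helios+ cells was not tested. The Trav11 segment, counted together with Trav11n and Trav11d, took 1 of 508, 1 of 1475, 3 of 703 and 0 of 819 UMIs of all TRAV segments in the Helios+ cells. In the even-row cells it took 318 of 1153, 459 of 1622, 134 of 418 and 344 of 1090, or 27.6, 28.3, 32.1 and 31.6%. Pooled over rows the share was 0.143% in Helios+ cells (95% Clopper-Pearson interval 0.0463 to 0.333%, counting error only) against 29.3% (27.9 to 30.7%), and the 0 of row 17 allows up to 0.366% by 3 counts of 819 UMIs and 0.449% by the upper Clopper-Pearson bound. The share was lower on the odd row in 4 of 4 pairs (difference -29.7 percentage points ± 2.21; exact sign-flip test p = 0.13). The mean share over the odd rows was 0.173%. It was 0.0882 to 0.231% without 1 pair and 0.380% without the gates. Near-identical segment copies can trade reads, which is why they were summed. Traj18, the joining segment of the invariant chain, had 1, 1, 2 and 0 UMIs on the odd rows against 53, 83, 22 and 63 on the even rows (log2 fold -4.01 ± 0.48, adjusted p = 7.3e-08).

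The sum over all TRAV segments lay the other way from Trav11. All TRAV segments together came to 744, 707, 626 and 752 UMIs per 1000000 in Helios+ cells against 193, 226, 190 and 230 in even-row cells, higher in 4 of 4 pairs (exact sign-flip test p = 0.13). Trbv13-2, the beta segment that encodes Vβ8.2 and is the most used by mouse iNKT cells, held 8.91, 10.8, 8.05 and 9.22% of TRBV UMIs against 46.7, 47.9, 48.6 and 51.2% (for its CPM, log2 fold -2.37 ± 0.11, adjusted p = 1.2e-08). On these values the group is described below as odd-row Helios+ cells and not as stage 0 iNKT cells.

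**Figure D1:**
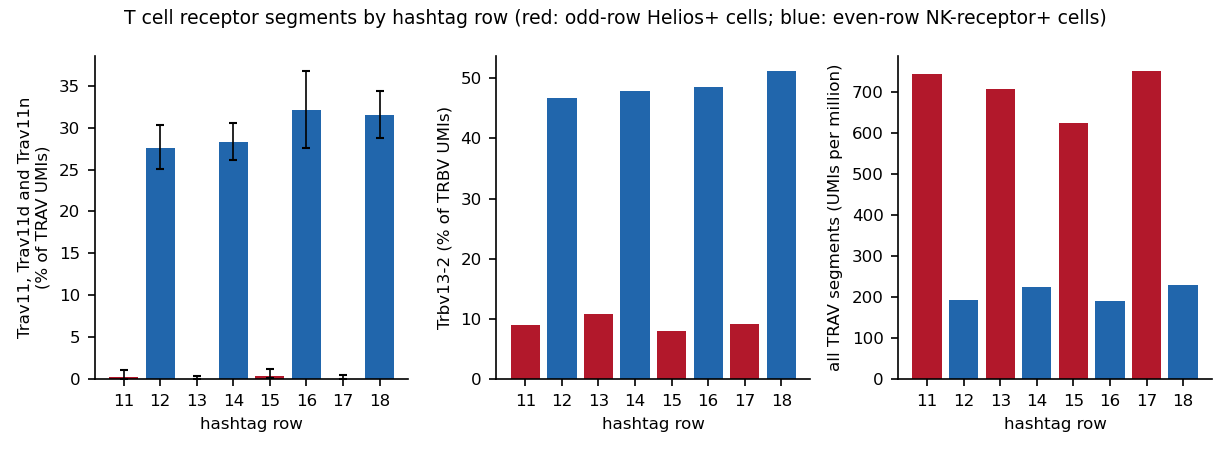
Share of TRAV UMIs on Trav11, Trav11d and Trav11n with 95% Clopper-Pearson intervals (left), share of TRBV UMIs on Trbv13-2 (middle) and TRAV UMIs per 1000000 (right) for each hashtag row, with odd-row Helios+ cells in red and even-row NK-receptor+ cells in blue. Trav11 shares were 0 to 0.427% on the odd rows and 27.6 to 32.1% on the even rows, while TRAV UMIs per 1000000 were higher on each odd row.

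Markers of other thymic T cells were also read in the Helios+ cells. The 10 markers of CD4+CD8+ (double positive, DP) thymocytes summed to 1739, 1881, 1634 and 1574 CPM against 145, 159, 198 and 195 CPM, although cells with Rag1, Rag2 or Arpp21 UMIs had been removed. Of the 8 tested, 5 were higher in Helios+ cells and 1, Cd4, in even-row cells. Most of that sum was Nrgn, which encodes the calmodulin-binding protein neurogranin, at 1362, 1626, 1396 and 1330.3 CPM against 27.1, 27.4, 81.2 and 78.8 CPM (log2 fold 4.63 ± 0.53, adjusted p = 0.0054). Cd8a was at 84.9, 31.6, 19.6 and 24.8 CPM against 3.17, 3.06, 1.81 and 2.53 CPM, with 14 to 41 Helios+ cells per row holding a UMI. Cd4 was at 19, 13.4, 9.79 and 7.34 CPM against 23, 29.1, 31.7 and 24.1 CPM (log2 fold -1.47 ± 0.21, adjusted p = 1.1e-06). In cells thinned to 2000 UMIs Cd4 was not called (log2 fold -0.96), and without the gates its sign turned (0.20, adjusted p = 0.766). Of 6 gamma-delta T cell markers, Trdc, the delta constant gene, was higher in Helios+ cells (34.9 to 87.8 against 7.71 to 12 CPM, log2 fold 2.14 ± 0.21, adjusted p = 1.0e-07). Without the cells past both gates the Trdc log2 fold was about as large, at 2.05, and its adjusted p was 0.153. Tcrg-C1 was higher in even-row cells (8.26 to 18.7 against 32.9 to 64.8 CPM) and lost its call without the gates (log2 fold -1.21, adjusted p = 0.130). Tcrg-C4 sat at the 2-fold line with overlap (19 to 33.8 against 32.4 to 54.9 CPM, log2 fold -1.01 ± 0.14, adjusted p = 6.3e-07) and was not called in 10 of 19 other settings, among them DESeq2, library size scaling and without pair 2 (log2 fold -0.94). The regulatory T cell markers summed to 95.9 to 157.5 CPM against 185 to 203 CPM, and of the 3 tested Tnfrsf4 was higher in Helios+ and Tnfrsf18 in even-row cells. Foxp3, the factor of that lineage, had 0, 2, 24 and 0 UMIs against 5, 0, 5 and 0. A UMI of it was in 11 of the 173 Helios+ cells of row 15 and 2 of the 339 of row 13, and in 1.14% of the odd-row B cells. The 7 NK cell markers summed to 40.9 to 58.6 CPM against 306 to 408 CPM, 5 of the 6 tested higher in even-row cells, and Ncr1 and Klrb1b were at 0 in all Helios+ rows. The part of such cells in the results was not tested.

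Across all genes the difference was wide. Of 9896 genes tested, edgeR's quasi-likelihood test with row pair as a term called 1057 (10.7%) higher in Helios+ cells and 1148 (11.6%) higher in even-row cells, at a Benjamini-Hochberg adjusted p under 0.05 and at least a 2-fold difference. In either direction 22.3% were called. At any size of difference 5766 genes (58.3%) passed, and 57.0% of all genes tested had CPM values that did not overlap between the 4 odd and the 4 even rows. The balance of the directions depends on the scaling: 47.9% of the calls were higher in Helios+ cells with TMM scaling, and 64.6% with library size only, which moved the median log2 fold of all genes from -0.01 to 0.28. Without the gates on Ikzf2 and on the NK-receptor genes, and with the CD3 gate and exclusions in both groups, 1211 and 934 genes were called. They included 905 of the 1057 and 868 of the 1148.

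Among the genes called higher in Helios+ cells, the 15 with the largest fold among those at 50 CPM or more included transcription factors, surface molecules and a phosphatase. Sox4, an HMG-box factor of immature lymphocytes, was the most abundant of them, at 627, 711, 830.2 and 794 CPM against 12.7, 14.6, 13.6 and 12.9 CPM (log2 fold 5.46 ± 0.09, adjusted p = 1.1e-24). Every Helios+ row was above every even row, and a UMI of Sox4 was seen in 86.2 to 94.2% of Helios+ cells and 4.05 to 4.54% of even-row cells (67.6 to 76.5% and 2.05 to 2.87% after thinning each cell to 2000 UMIs). As a background level, 437 odd-row B cells, chosen by at least 2 Cd79a UMIs and no CD3 UMI, with a median of 6187 UMIs, showed it in 3.2% of cells (1.86% thinned). Their pooled level was 4.28 CPM, below every even row.

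Sox5, of the same family, was at 51.2, 68.6, 45.4 and 48.7 CPM against 0.835, 0.418, 0.907 and 0.422 CPM (log2 fold 6.18 ± 0.27, adjusted p = 2.3e-16). Itgb8, the integrin chain that with alpha-v activates latent TGF-beta, was at 49.8, 74.8, 98.8 and 73.4 CPM against 0.668, 0.418, 0.453 and 1.06 CPM (log2 fold 6.39 ± 0.24, adjusted p = 9.1e-18). Trpm1, a cation channel gene, was at 120.1, 159.7, 157 and 211 CPM against 1, 1.67, 1.36 and 1.06 CPM (log2 fold 6.62 ± 0.16, adjusted p = 2.1e-21). No even row reached 2 CPM for these 3 genes. Cldn10, a claudin, lay at 134 to 159 against 1.27 to 3.63 CPM, and Tmem158, a membrane protein induced by Ras signalling, at 90.8 to 144 against 2.27 to 5.01 CPM. Cd200, whose product engages the inhibitory receptor CD200R, lay at 52.7 to 101 against 1.34 to 2.72 CPM, and Dusp4, a phosphatase that turns off MAP kinases, at 58.6 to 111 against 1.81 to 2.96 CPM. The others were 2610204G07Rik, Fcrl1, Mctp1, Gsta4, Prr5l, Plxdc2 and Tnni1, with log2 folds from 4.84 (Plxdc2) to 6.96 (2610204G07Rik). Fcrl1, known from B cells, and Sox5 were at 30.8 and 18.3 CPM in the odd-row B cells against 3.28 and 5.83 CPM in odd-row CD3+ cells below the Ikzf2 gate.

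The 15 leading genes higher in even-row cells included those of NK receptors, killing and type 1 cytokine responses. Ifng, which encodes interferon-gamma, was at 4.39, 3.36, 1.78 and 0.918 CPM against 173, 189.6, 95.7 and 123 CPM (log2 fold -6.12 ± 0.18, adjusted p = 5.4e-20). Gzmb, which encodes granzyme B, was at 5.86, 8.63, 2.67 and 7.34 CPM against 279.8, 336, 509 and 545 CPM (log2 fold -6.25 ± 0.19, adjusted p = 4.1e-11). Fasl, which encodes Fas ligand, lay at 0.918 to 1.92 against 97 to 134 CPM. The Helios+ values for Ifng and Fasl were near the 1.43 and 2.28 CPM of the odd-row B cells. Cxcr3, a chemokine receptor under T-bet, was at 4.39, 4.79, 5.34 and 5.51 CPM against 235, 263, 259 and 299 CPM (log2 fold -6.0 ± 0.13, adjusted p = 4.0e-22), with 65.1 CPM in the odd-row B cells. Ly6c2, a surface marker of memory-like T cells, was at 49.8, 42.7, 33.8 and 40.4 CPM against 2364, 2246, 1961 and 2157 CPM (log2 fold -6.01 ± 0.08, adjusted p = 1.3e-27), the highest level among the 15 genes. In the odd-row B cells it was at 1225 CPM. Zfp683, which encodes Hobit, a transcription factor of resident lymphocytes, lay at 2.67 to 8.78 against 182 to 264 CPM, and Il18rap, a chain of the interleukin-18 receptor, at 0.918 to 2.93 against 116 to 154 CPM.

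Klrc1, Klrc2, Klre1, Klra3 and Klra9, all NK receptor genes, were also among the 15, as were Ctla2a and Ifitm10. Klra9 was uneven among the even rows (8.78, 10.5, 12.5 and 12.9 CPM against 719.5, 768, 284 and 299 CPM). Gzmc was more so, at 1.46, 0.479, 1.78 and 0 CPM against 7.35, 13.5, 220.3 and 198 CPM, and its call was lost when the row pair was left out of the fit (log2 fold -7.17, adjusted p = 0.079) and without the gates (-4.15, adjusted p = 0.082). Rows 16 and 18 were high and rows 12 and 14 low for Gzmc, and the reverse held for Klra9. Klra receptor genes are near-identical to each other, so their separate counts are uncertain.

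**Figure D2:**
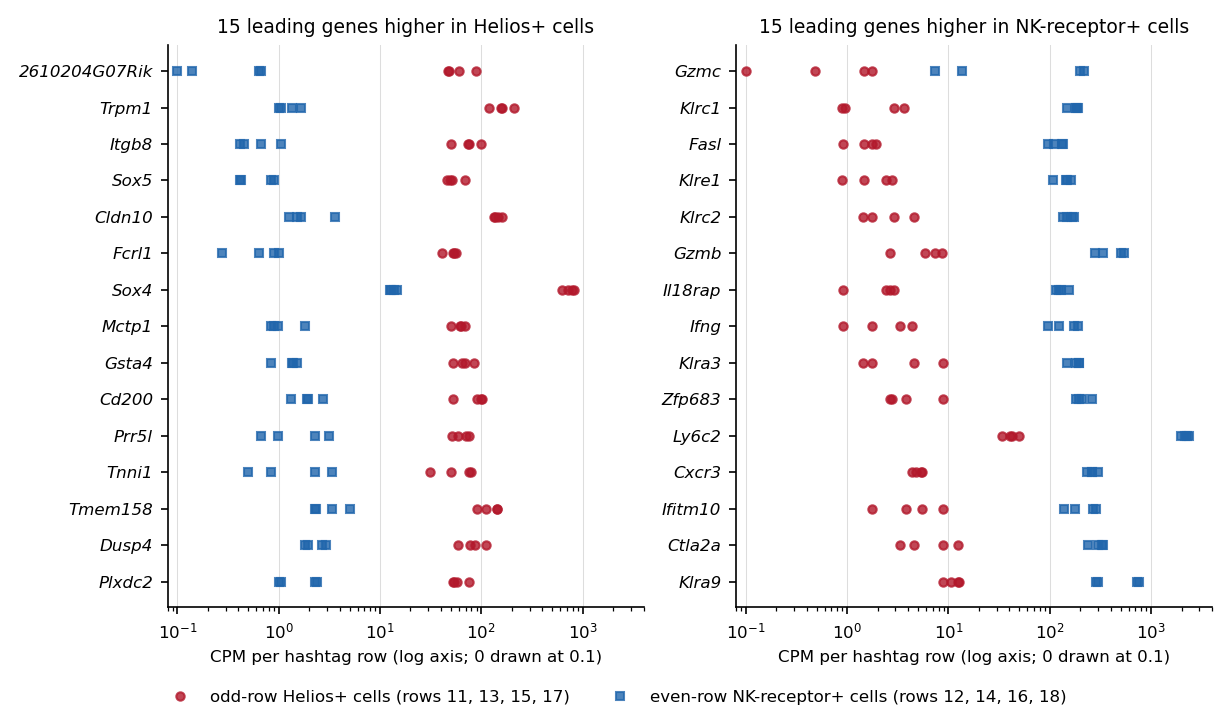
CPM (log axis) of the 15 genes with the largest fold in each direction, 1 point per hashtag row, circles for odd-row Helios+ cells and squares for even-row NK-receptor+ cells. Genes whose odd and even rows overlap were left out by the choice. Among the 15 genes higher in even-row cells Gzmc has the widest ratio between even rows, 7.35 to 220 CPM.

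Of 31 genes that TCR signals are known to induce, 30 were tested, 12 were higher in Helios+ cells and 5 in even-row cells, with a median log2 fold of 0.38 against -0.01 for all genes. Since the Helios+ cells were chosen by RNA of Ikzf2, itself switched on after strong TCR signals, this list lies close to the gate. The 12 included the 3 orphan nuclear receptors of the Nr4a family. Nr4a1 was at 337, 468, 588 and 490.2 CPM against 9.35, 15.9, 9.52 and 25.6 CPM (log2 fold 4.62 ± 0.26, adjusted p = 1.9e-04). Nr4a2 lay at 93.7 to 213 against 7.71 to 15.2 CPM and Nr4a3 at 54.2 to 93.6 against 9.6 to 11.8 CPM. Pdcd1, which encodes the inhibitory receptor PD-1, was at 552, 618, 572 and 553 CPM against 14, 14.5, 19.5 and 20.1 CPM (log2 fold 4.83 ± 0.11, adjusted p = 4.9e-20). Tnfrsf9, which encodes 4-1BB, was at 229.9, 282, 349.7 and 276 CPM against 10.5, 12.8, 22.2 and 25.6 CPM (log2 fold 3.77 ± 0.18, adjusted p = 3.2e-07). For all of these the odd rows lay above the even rows without overlap, and the Helios+ cells lay above the 18.6 CPM of Nr4a1 and 10.6 CPM of Pdcd1 in the odd-row B cells.

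Egr2, the Egr factor needed for iNKT development, was higher in Helios+ cells at 58.6, 55.6, 73.9 and 50.5 CPM against 10.2, 13.2, 14.1 and 16.5 CPM (log2 fold 1.82 ± 0.15, adjusted p = 1.3e-10). Egr1 missed the 2-fold rule at 178 to 242 against 77.5 to 105 CPM (log2 fold 0.89 ± 0.09, adjusted p = 1.8e-08) and passed it with library size scaling, with thinned cells and in 2 other settings. Spry1 and Dusp4, both feedback inhibitors of the Ras and MAP kinase pathway, were higher in Helios+ cells, as were Tnfrsf4, Bcl2l11, Gadd45b and Ikzf4. Gadd45b fell under the 2-fold line without pair 1 (log2 fold 0.83 against 1.11) and with at least 4 Ikzf2 UMIs (0.74). Induced genes that were higher in even-row cells were Dusp2, a nuclear MAP kinase phosphatase (171 to 219 against 391 to 539 CPM), Tnfaip3, which encodes the NF-κB inhibitor A20 (64.1 to 105 against 117 to 183 CPM), Tnfrsf18, which encodes GITR (68.6 to 98.2 against 172 to 187 CPM), Ier3 and Orai2. Tnfaip3 was not called with library size scaling (log2 fold -0.97) or in thinned cells (-0.70), Tnfrsf18 without cycling cells (-0.84) or Ier3 without the gates (-0.96). Cd5, a surface inhibitor that follows TCR signal strength, was at 463, 338, 328 and 319 CPM against 181, 206, 275 and 274 CPM and was not called (log2 fold 0.35 ± 0.26, adjusted p = 0.34). The row with the highest Cd5 level was row 11.

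Immature thymocyte genes were mostly higher in Helios+ cells. Of 29 listed, 27 were tested, 17 were higher in Helios+ cells and 2, Cd4 and Bcl11b, in even-row cells, with a median log2 fold of 1.48. Neither exception held without the gates, where the log2 fold of Cd4 went from -1.47 to 0.20 and that of Bcl11b from -1.07 to -0.15 (adjusted p = 0.766 and 0.355). Bcl11b was also not called in 5 other settings, library size scaling (-0.79) and thinned cells (-0.93) among them. Id3, an inhibitor of E protein transcription factors that TCR signals induce, was at 846, 810.2, 794 and 618 CPM against 60.1, 60.3, 107 and 89.5 CPM (log2 fold 3.03 ± 0.29, adjusted p = 0.0028). Id2, its relative in mature innate-like cells and a member of the lineage factor list, ran the opposite way at 93.7, 51.8, 64.1 and 61.5 CPM against 957, 999.8, 1019 and 1051 CPM (log2 fold -4.24 ± 0.14, adjusted p = 3.2e-09). Tox, an HMG-box factor of selected thymocytes, was at 372 to 446 against 45.3 to 58.9 CPM, Lef1 at 511 to 794 against 89.3 to 125 CPM and Tcf7, which encodes TCF-1, at 599.7 to 742 against 184 to 220.5 CPM. Myb, a factor of DP thymocytes needed for the iNKT lineage, was at 261 to 299 against 18.2 to 31.7 CPM, and Itm2a, a membrane protein induced at positive selection, at 517 to 651 against 112 to 150.1 CPM. Marcksl1 was at 496 to 618 against 20.9 to 22.2 CPM. Cd24a, the gene of a protein used in the sort, was at 239 to 320.3 against 21.8 to 31.9 CPM.

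The transcription factors of the iNKT lineage showed the reverse. Of 23, 22 were tested, 14 were higher in even-row cells and 1, Hivep3, in Helios+ cells, with a median log2 fold of -1.54. Zbtb16, which encodes PLZF, was at 30.7, 13.4, 18.7 and 7.34 CPM against 65, 73.5, 72.5 and 72 CPM (log2 fold -2.46 ± 0.23, adjusted p = 8.3e-06). Tbx21, which encodes T-bet, was at 5.86, 7.67, 7.12 and 0.918 CPM against 217, 209.9, 171 and 175 CPM (log2 fold -5.35 ± 0.17, adjusted p = 3.9e-16). The Helios+ values of Tbx21 lay under the 12.3 CPM of the odd-row B cells, whereas Zbtb16 exceeded their 0.285 CPM on each row. Maf lay at 1.78 to 6.43 against 47.6 to 54.8 CPM, Zbtb7b, which encodes ThPOK, at 0 to 5.27 against 46.3 to 62.1 CPM, and Runx3 at 24.8 to 40.8 against 172 to 199 CPM. Gata3 was not called (46.8 to 86.4 against 81.2 to 93.6 CPM), with overlap. Eomes, a T-box factor, was at 24.9, 14.9, 6.23 and 5.51 CPM against 0.167, 0.139, 1.36 and 3.38 CPM and was not called (log2 fold 3.33 ± 1.23, adjusted p = 0.099). Its odd and even rows did not overlap. It was called by DESeq2 (log2 fold 3.82, adjusted p = 0.0077), without the filter on low counts (3.27, adjusted p = 0.0012), without the row pair in the fit (3.19, adjusted p = 0.016) and without pair 4 (5.22, adjusted p = 4.8e-07). Hivep3, a zinc finger factor of early iNKT development, was at 168, 204, 167 and 148 CPM against 32.9, 34.1, 57.1 and 45.2 CPM (log2 fold 1.80 ± 0.21, adjusted p = 7.0e-04).

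**Figure D3:**
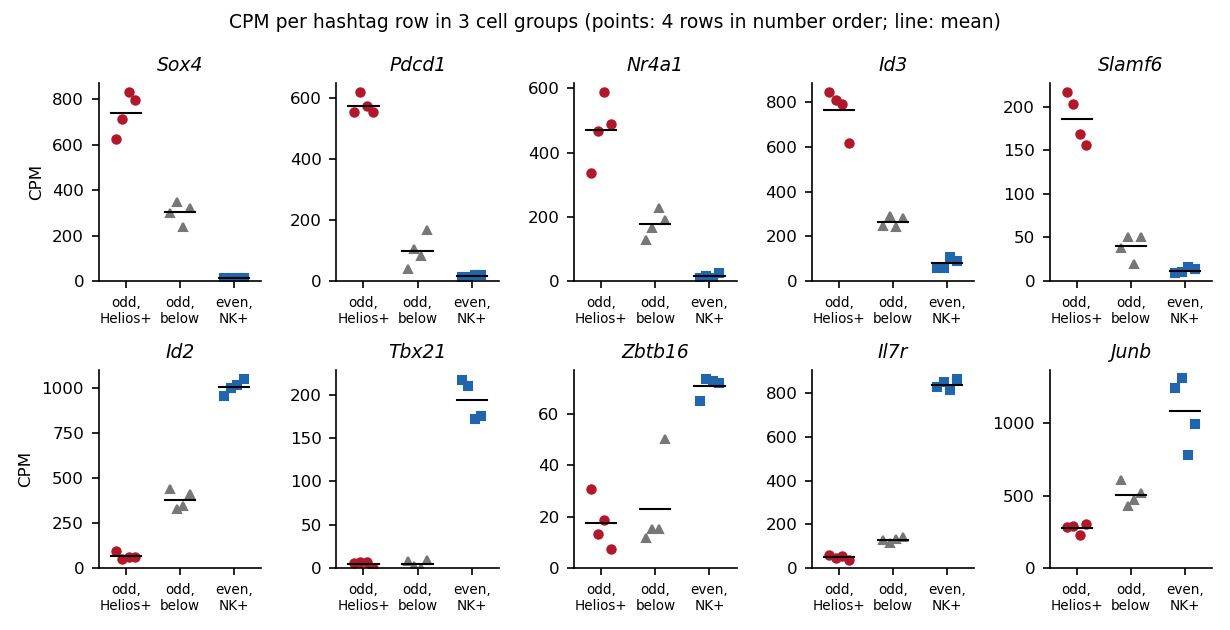
CPM of 10 genes on each hashtag row (points) and their mean (line) in odd-row Helios+ cells, in odd-row CD3+ cells that met the other gates with fewer than 2 Ikzf2 UMIs, and in even-row NK-receptor+ cells. The mean of the middle group lies between the others for Sox4, Pdcd1, Nr4a1, Id3, Slamf6, Id2, Zbtb16, Il7r and Junb, for Zbtb16 only through row 17 (50.2 CPM against 11.8 to 15.4 on the other rows), and for Tbx21 it is as low as in Helios+ cells.

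The 563 odd-row CD3+ cells that met the exclusions but not the Ikzf2 gate give the levels beside the gate, as a description. Pooled, they held Sox4 at 308, Pdcd1 at 80.8, Nr4a1 at 161 and Slamf6 at 40.8 CPM, below every Helios+ row. Id2 was at 389 CPM, above every Helios+ row. Immature thymocyte genes other than Sox4 went different ways. Id3 at 263, Myb at 106, Marcksl1 at 394, Tox at 274 and Ldhb at 118 CPM were also below every Helios+ row. Tcf7 at 646 and Lef1 at 568 CPM lay within the range of the Helios+ rows. Itm2a at 758, Cd8a at 95.4 and Ccr9 at 257 CPM lay above it. They held more RNA of antigen-presenting cells than either group, with Cd74 at 13357 and Cst3 at 6625 CPM, and its part in these levels was not tested.

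Within the Ikaros family, 1 of the 4 members tested, Ikzf4, which encodes Eos, was higher in Helios+ cells (7.19 to 14.7 against 0.557 to 1.81 CPM, log2 fold 3.27 ± 0.40, adjusted p = 1.2e-07). Its counts were low, and it had too few UMIs to be tested in 4 other settings, thinned cells among them. Ikzf3, which encodes Aiolos, was at 284, 327, 354 and 318 CPM against 227, 224, 166 and 181 CPM. Every odd row was above every even row, but the difference stayed under 2-fold (log2 fold 0.40 ± 0.09, adjusted p = 0.001). Without the gates the direction turned (log2 fold -0.068, adjusted p = 0.869), and the odd-row CD3+ cells below the Ikzf2 gate held Ikzf3 at 75 CPM. Ikzf1, which encodes Ikaros, lay at 239 to 269 against 229 to 252 CPM and overlapped.

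AP-1 and Krüppel-like factors, which respond to activation and to quiescence signals, were largely lower in Helios+ cells: of 13, 12 were tested, 9 were higher in even-row cells and 1, Klf7, in Helios+ cells, with a median log2 fold of -1.32. Junb was at 287, 291, 231 and 305 CPM against 1238, 1307, 781 and 992 CPM (log2 fold -2.22 ± 0.07, adjusted p = 3.8e-17). Klf2, which keeps T cells quiescent and controls their exit from the thymus, was at 169.8, 193, 177 and 172 CPM against 433, 473, 355 and 385 CPM (log2 fold -1.49 ± 0.08, adjusted p = 5.7e-15). Klf6 and Klf3 lay at 58.7 to 99.2 against 208 to 386 CPM and 28.3 to 43.6 against 94.8 to 184 CPM. Jun and Fos were called but overlapped. Jun was at 225, 241, 147 and 224 CPM against 424, 575, 212 and 319 CPM and Fos at 159.6, 196, 61.4 and 178 CPM against 271, 456, 119 and 277 CPM, with row 15 the lowest odd row and row 16 the lowest even row for each. Jun was not called without pair 2 (log2 fold -0.91), and neither was called with library size scaling, in thinned cells or with at most 4000 genes per cell. Jun also lost its call without the cells past both gates, and Fos without cycling cells. Without the gates neither was called (log2 fold -0.40 for each), and Fos was not called without the row pair in the fit (adjusted p = 0.088). The odd-row CD3+ cells below the Ikzf2 gate held Jun at 605 and Fos at 467 CPM. The odd-row B cells held them at 633 and 601 CPM, and all of these levels lay above every even row. Junb was at 523 and 401 CPM in these cells, below every even row. Cited2 (142 to 167 against 256 to 338 CPM) and Phf1 (14.2 to 20.5 against 44.4 to 74 CPM) were higher in even-row cells, Cited2 not with library size scaling (log2 fold -0.98), and Mxd4, a MYC antagonist, overlapped (135 to 177 against 144 to 235 CPM) and was not called.

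The NK receptor list had the largest median difference of the 21 lists. Of 21, 20 were tested and 19 were higher in even-row cells, with a median log2 fold of -4.83. The exception was Cd160 (157 to 229.6 against 143 to 185 CPM), which was not called and whose sign turned under 4 settings, library size scaling among them. Klrk1, which encodes NKG2D, was at 20.5, 6.23, 9.79 and 5.51 CPM against 381, 391, 432 and 434 CPM (log2 fold -5.78 ± 0.22, adjusted p = 9.1e-08). Klrd1, which encodes CD94, was at 35.1, 11, 8.01 and 11.9 CPM against 497, 555, 567 and 666 CPM. Row 11 was the highest odd row for both genes. A UMI of Klrk1 was seen in 3.49 to 6.36% of Helios+ cells against 3.89% of the odd-row B cells and 55.6 to 58.4% of even-row cells. Since the even-row cells were chosen by NK receptor RNA, this list lies close to the gate. Without the gates 17 of its members were higher in even-row cells.

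Cytotoxic genes were 8 of 10 higher in even-row cells, none in Helios+ cells, with a median log2 fold of -2.66. Ctsw, a protease of killer cells, was at 227, 182, 174 and 129 CPM against 1129, 1153, 1170.2 and 1171 CPM (log2 fold -3.01 ± 0.13, adjusted p = 8.8e-07), a level in Helios+ cells well above the 26.3 CPM of the odd-row B cells. Prf1, which encodes perforin, lay at 0 to 11.6 against 42.6 to 63.1 CPM, and Gzma at 22.2 to 32.2 against 108 to 150.4 CPM. Serpinb9, a granzyme B inhibitor, was at 45.4, 4.79, 5.34 and 8.26 CPM against 60.3, 52.7, 74.8 and 87.4 CPM with row 11 the highest odd row. Its call (log2 fold -2.79 ± 0.68, adjusted p = 0.041) was lost without pair 2, 3 or 4, with log2 folds of -2.45, -2.51 and -2.51 and adjusted p = 0.159, 0.130 and 0.150, and without the filter on low counts (0.068). Without pair 1 the log2 fold was -3.81 (adjusted p = 1.1e-34).

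Cytokine genes were 6 of 9 higher in even-row cells, none in Helios+ cells. Il4, the type 2 cytokine that iNKT cells also make, was at 1.46, 0.959, 1.78 and 0.918 CPM against 30.2, 33.3, 22.2 and 32.5 CPM (log2 fold -4.88 ± 0.31, adjusted p = 5.2e-13). Ltb, which encodes lymphotoxin beta, was at 247, 194, 257 and 252 CPM against 851, 865, 953 and 906 CPM (log2 fold -2.21 ± 0.07, adjusted p = 4.9e-19). Ccl5, a chemokine of memory and killer cells, was at 38.1, 28.8, 36.5 and 164 CPM against 895, 829.7, 575 and 586 CPM, with row 17 the highest odd row. Its call (log2 fold -3.87 ± 0.70, adjusted p = 0.019) was lost without pair 1, 2 or 3 (log2 folds of -3.63, -3.40 and -3.78, adjusted p = 0.071, 0.074 and 0.089), in thinned cells (-3.18, 0.057) and without cycling cells (-2.74, 0.138). Without pair 4 the log2 fold was -4.76 (adjusted p = 1.1e-16). Xcl1, a chemokine of agonist-selected and NK cells, sat just past the 2-fold line (122 to 210.5 against 282 to 295 CPM, log2 fold -1.02 ± 0.10, adjusted p = 1.8e-07) and was not called in 9 other settings.

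Among 19 cytokine receptors, of which 17 were tested, 9 were higher in even-row cells and 3 in Helios+ cells, with a median log2 fold of -1.07. Il7r, the receptor chain for the survival cytokine interleukin-7, was at 61.5, 46, 55.2 and 36.7 CPM against 827, 853, 812 and 863 CPM (log2 fold -4.39 ± 0.10, adjusted p = 2.1e-18). Il18r1 lay at 2.93 to 7.34 against 155 to 213 CPM, and Il12rb2, a chain of the interleukin-12 receptor, at 3.36 to 11 against 127 to 139 CPM. The 3 that were higher in Helios+ cells were Kit, the stem cell factor receptor (38.1 to 67 against 1.5 to 2.37 CPM), Il6st, which encodes the signal-transducing chain gp130 (136 to 171 against 8.35 to 9.35 CPM), and Ifngr2 (12.9 to 22.2 against 2.96 to 3.51 CPM).

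Migration and adhesion genes were 12 of 18 higher in even-row cells and 4 in Helios+ cells, with a median log2 fold of -1.72. Those higher in Helios+ cells included Ccr9, the receptor for a thymic and gut chemokine (11.5 to 52.7 against 4.08 to 5.71 CPM), Cxcr4 (16 to 26.6 against 5.57 to 9.08 CPM, not called without the gates) and the integrin gene Itga4 (89.3 to 162 against 29.8 to 38.6 CPM). Higher in even-row cells were Cxcr6 (2.75 to 22 against 207 to 307 CPM), the receptor that holds iNKT1 cells in tissues, the integrin genes Itga1 (0.479 to 3.67 against 71.2 to 125 CPM) and Itgae (0.918 to 20.5 against 108 to 164 CPM), and Ly6a (8.9 to 27.3 against 323 to 389 CPM). Cd44, whose protein was used in the sort, lay at 12.9 to 16.1 against 142 to 163 CPM.

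Genes of iNKT selection were 4 of 9 higher in Helios+ cells, none in even-row cells, with a median log2 fold of 0.35. Slamf6, the SLAM receptor Ly108 that acts in iNKT selection, was at 217, 203, 169 and 156 CPM against 8.85, 9.88, 16.3 and 13.3 CPM (log2 fold 3.75 ± 0.20, adjusted p = 3.5e-07). Cd1d1, the lipid-presenting molecule that selects iNKT cells, was at 42.5, 45.5, 48.1 and 69.8 CPM against 21, 16.4, 13.1 and 13.3 CPM (log2 fold 1.40 ± 0.17, adjusted p = 9.1e-07). Slamf1 was at 15.1 to 19 against 3.84 to 10.8 CPM and lost its call without pair 1, with at least 4 Ikzf2 UMIs and without the filter on low counts. Helios+ cells lay above even-row cells on every row for all 3 genes.

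All 20 TCR signalling components were tested, of which 2 were higher in each group and 16 were not called, with a median log2 fold of -0.44. These counts are near the 10.7% and 11.6% of all genes tested that were higher in Helios+ and in even-row cells. Rasgrp1, which links the TCR to Ras, was at 379, 389, 402 and 399 CPM against 104, 114, 86.1 and 106 CPM (log2 fold 1.64 ± 0.08, adjusted p = 1.6e-15), and Ubash3b, a phosphatase that damps TCR signals, at 149 to 171 against 33.1 to 47.1 CPM. Ptpn6, which encodes SHP-1, and Nfatc2 were higher in even-row cells, at 192 to 271 against 554 to 625 CPM and 16.9 to 27.8 against 85.5 to 94.3 CPM.

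Of 12 BCL2 family genes tested, 1 was higher in Helios+ cells and 3 in even-row cells, beside 10.7% and 11.6% of all genes tested. Bcl2l11, which encodes the death-promoting BIM, was higher in Helios+ cells at 109.8, 81.5, 85.4 and 109 CPM against 33.2, 34.7, 34.9 and 32.3 CPM (log2 fold 1.20 ± 0.11, adjusted p = 1.0e-09). It was not called without the gates (log2 fold 0.95). Bcl2a1b, Bbc3 and Bik were higher in even-row cells. Bbc3, which encodes PUMA, lay at 18.7 to 29.3 against 47.2 to 58.9 CPM and was not called without cycling cells (log2 fold -0.85). Bcl2a1b, which encodes a survival protein, was at 90.8, 25.4, 16 and 7.34 CPM against 172, 163, 219.9 and 216 CPM, with row 11 the highest odd row, and its call (log2 fold -2.97 ± 0.67, adjusted p = 0.034) was lost without pair 2, 3 or 4 (log2 folds of -2.95, -2.71 and -2.58), without the gates (-1.56) and without the filter on low counts (-3.02). Without pair 1 the log2 fold was -3.70 (adjusted p = 0.012). Bcl2 (104 to 177 against 151 to 168 CPM) and Mcl1 (239 to 277 against 239 to 257 CPM) overlapped and were not called.

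Gimap genes, GTPases of lymphocyte survival, were 4 of 8 higher in even-row cells, none in Helios+ cells, led by Gimap4 (47 to 89.3 against 535 to 659.8 CPM) and Gimap3 (70.3 to 73.4 against 467 to 565 CPM). The count was 2 of 8 without pair 2, and also with library size scaling, in thinned cells, with at most 4000 genes per cell and without cycling cells. S100, annexin and related genes of effector lymphocytes were 10 of 13 higher in even-row cells, and 5 of 13 without the gates. The count was 6 without pair 3 and 5 with library size scaling. S100a6 was at 68.8, 47.9, 41.8 and 61.5 CPM against 1126, 1137, 1629 and 1393 CPM (log2 fold -4.89 ± 0.21, adjusted p = 4.1e-05). S100a4 lay at 2.67 to 54.2 against 133 to 241 CPM, Ahnak at 27.3 to 105 against 561 to 588 CPM and Anxa1 at 0 to 13.2 against 58.8 to 83.9 CPM, each with row 11 the highest odd row. With and without pair 1 the log2 folds were -3.73 and -4.56 for S100a4, -3.88 and -4.30 for Ahnak, and -4.62 and -5.53 for Anxa1. The S100a4 call was lost without pair 2, 3 or 4, with log2 folds of -3.69, -3.26 and -3.47 and adjusted p = 0.108, 0.0705 and 0.10. Without the gates neither S100a4 (log2 fold -1.03, adjusted p = 0.298) nor Anxa1 (-1.55, adjusted p = 0.107) was called. Interferon-stimulated genes were 15 of 16 higher in even-row cells, with a median log2 fold of -2.21, and 9 of 16 without the gates. Ly6e was at 738, 713, 658 and 712 CPM against 2584, 2757, 2953 and 3361 CPM (log2 fold -2.33 ± 0.07, adjusted p = 3.1e-14), and Ifit3, an antiviral protein gene, at 8.78, 0.479, 1.78 and 2.75 CPM against 43.8, 23.7, 54.4 and 55.8 CPM. Regulators of RNA decay and quiescence were 8 of 13 higher in even-row cells, with Slfn2, needed for T cell quiescence, at 32.1 to 48.3 against 227 to 307 CPM and Btg2 at 153 to 168 against 399 to 557 CPM.

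**Figure D4:**
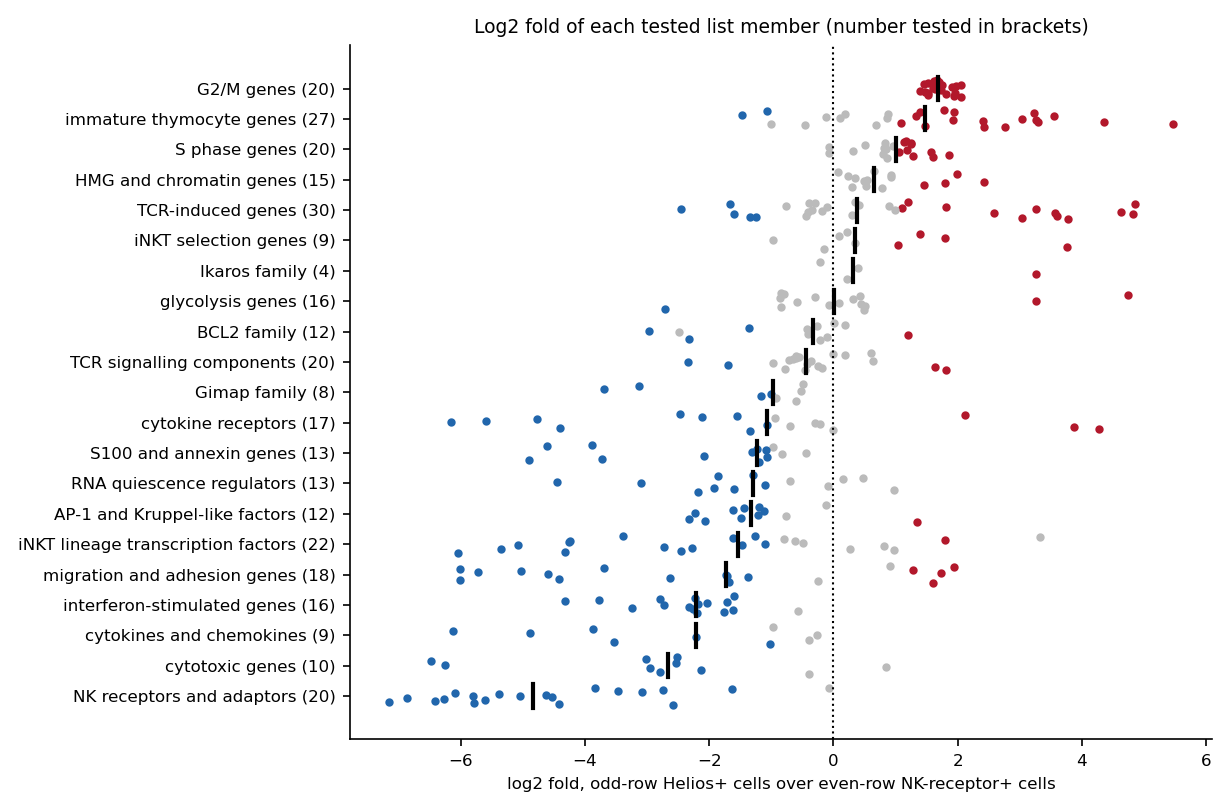
Log2 fold (odd-row Helios+ over even-row NK-receptor+ cells) of every tested member of 21 gene lists, red for genes called higher in Helios+ cells, blue for genes called higher in even-row cells and grey for genes not called. The bar is the list's median, from 1.68 for G2/M genes to -4.83 for NK receptors, and the dotted line is the median of all genes.

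G2/M genes, and part of the S phase genes, were higher in Helios+ cells. All 20 genes of the G2/M phases were called, with a median log2 fold of 1.68, and 10 of 20 S phase genes, with a median of 1.01. The S phase count was 16 with library size scaling, 6 without the cells past both gates, and 5 of 18 tested in thinned cells. A limit of 4000 genes per cell lowered it to 4 and the G2/M count to 11. The G2/M genes summed to 2470, 1950, 2088 and 2281 CPM against 493, 429, 584 and 734 CPM. Every odd row was above every even row. Ube2c, a mitotic ubiquitin-conjugating enzyme, was at 438, 320.2, 314 and 327 CPM against 64, 55.4, 76.2 and 83.4 CPM, Ccnb2, a mitotic cyclin, at 74.7 to 119 against 14.9 to 28.1 CPM, and Rrm2, a subunit of ribonucleotide reductase, at 128 to 188 against 28.8 to 59.1 CPM. Mki67, which encodes the proliferation marker Ki-67, was at 234, 205, 303 and 271 CPM against 65.1, 49, 76.2 and 119 CPM (log2 fold 1.47 ± 0.14, adjusted p = 2.5e-05) and was not called with at most 4000 genes per cell (log2 fold 0.93). The odd-row CD3+ cells below the Ikzf2 gate overlapped the Helios+ rows for all of these genes. They held Mki67 at 146 to 298, Ube2c at 169 to 418, Ccnb2 at 52.8 to 99.7 and Rrm2 at 42.8 to 167 CPM.

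At 2000 UMIs per cell, 61.9, 63.2, 55.1 and 54.2% of Helios+ cells held a UMI of any G2/M gene against 48.6, 49.1, 48.0 and 45.5% of even-row cells, higher in 4 of 4 pairs (difference 10.8 percentage points ± 3.41; exact sign-flip test p = 0.13). Of the odd-row B cells 42.0% did. Thinning kept 105, 323, 167 and 166 Helios+ cells, 1610, 1949, 496 and 1084 even-row cells and 431 B cells. Without thinning the shares were 75.9 to 83.8% and 66.0 to 69.7%. When cells with a UMI of any of 7 mitotic genes were left out, 5 of the 20 G2/M and 16 of the 20 S phase genes still had enough UMIs to be tested, and none of these was called. This setting, named here as without cycling cells, kept 51, 129, 71 and 64 Helios+ cells and 935, 1165, 294 and 672 even-row cells. Whether all cells left out were cycling was not tested. In that setting 615 genes were called higher in Helios+ cells. Of the 1057 genes called with all cells, 487 were among them. All 7 belong to the G2/M list, so the low counts of these genes are set by that choice of cells.

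**Figure D5:**
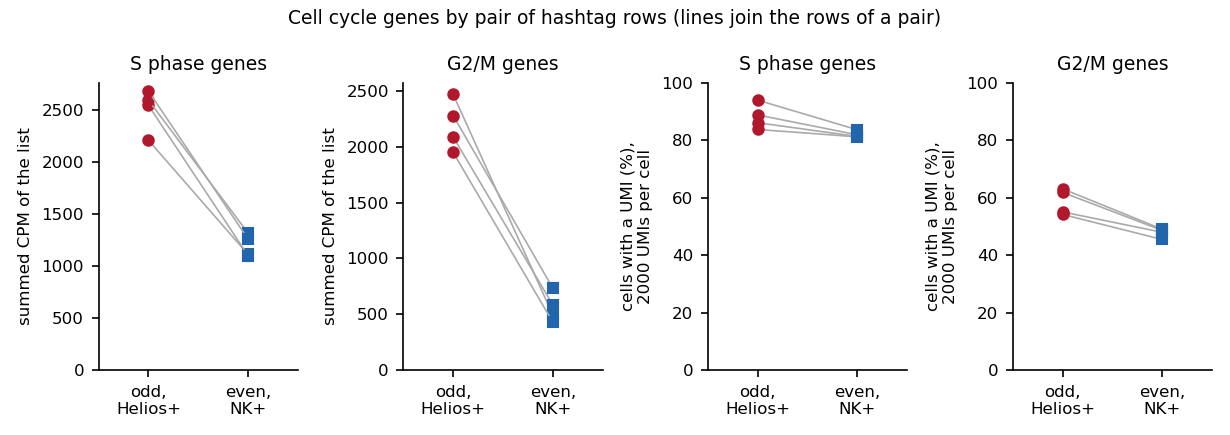
Summed CPM of 20 S phase and 20 G2/M genes (left panels) and percent of cells with a UMI of any of them at 2000 UMIs per cell (right panels), for odd-row Helios+ cells (circles) and even-row NK-receptor+ cells (squares), with lines joining the rows of a pair. The odd row is the higher of each pair in all 4 panels, and the gap is wider in summed CPM than in the share of cells.

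Chromatin genes that go with proliferation and immaturity were 4 of 15 higher in Helios+ cells, none in even-row cells: Hmgb3 (94.3 to 143 against 17.4 to 19.4 CPM), the histone methyltransferase gene Ezh2 (139 to 176 against 25.3 to 39.3 CPM), Hmgn1 (499 to 565 against 113 to 138 CPM) and Hmgn2 (611 to 767 against 198 to 224 CPM). With library size scaling 7 of 15 were higher in Helios+ cells. Hmgn2 was not called without cycling cells (log2 fold 0.725 against 1.46). Of 16 glycolysis genes tested 2 were higher in Helios+ cells and 1 in even-row cells, beside 10.7% and 11.6% of all genes tested. The other 13 were not called, and the median log2 fold was 0.01. Eno3, the muscle enolase, was higher in Helios+ cells at 157, 279.98, 216 and 231 CPM against 5.51, 8.07, 6.8 and 6.76 CPM (log2 fold 4.74 ± 0.11, adjusted p = 1.1e-21), as was Ldhb (174 to 189.8 against 11.8 to 19.7 CPM). Slc2a3, a glucose transporter, was higher in even-row cells (5.75 to 14.6 against 44.9 to 53.2 CPM).

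Promoter sequences were read for the called genes, from RefSeq (build GRCm38.p6), as 250 bases before to 50 bases after the start. A promoter was given for 7810 of the 9896 genes tested, 803 of those higher in Helios+ cells and 831 of those higher in even-row cells. Short letter strings known from the binding sites of factor families were searched on both strands. The E-box strings CAGCTG and CAGGTG, bound by the E proteins that Id2 and Id3 inhibit, were in 30.1% and 35.3% of these promoters against 27.7% of those of all genes tested. The RUNX string TGTGGTTT was in 1.12% and 2.05% against 1.11%, and the T-box string AGGTGTGA, which can overlap CAGGTG in its letters AGGTG, in 0.498% and 1.08% against 0.768%. The EGR string GCGGGGGCG was in 7.10% and 6.02% against 5.60%, the NR4A string AAAGGTCA in 0.872% and 0.722% against 0.832%, the KLF string GGGGTGTGG in 1.74% and 2.05% against 1.81%, and the TCF string CTTTGATC in 0.747% and 0.842% against 0.627%. Of all 27025 RefSeq promoters of this length, 32.6% held an E-box, 1.86% the RUNX, 1.27% the T-box, 2.92% the EGR, 1.46% the NR4A, 1.24% the KLF and 0.936% the TCF string. A match is a description of the letters and not a site. The windows below, 25 bases on each side of the match on the gene's strand, are given for genes whose values stand above, with the match in capitals. They show genes of both directions. Cd200 (chr16:45409058-45409116, minus strand) and Nr4a1 (chr15:101266761-101266819, plus strand), higher in Helios+ cells, and Bbc3 (chr7:16309509-16309567, plus strand) and Dusp2 (chr2:127336036-127336094, plus strand), higher in even-row cells, hold the EGR string, Nr4a1 on the opposite strand. An E-box is held by Sox4 (chr13:28953880-28953935, minus strand), Itgb8 (chr12:119238308-119238363, minus strand), Rasgrp1 (chr2:117342905-117342960, minus strand) and Itga4 (chr2:79255276-79255331, plus strand), higher in Helios+ cells, with Itgb8 on the opposite strand. It is also held by Ifng (chr10:118440797-118440852, plus strand), Tbx21 (chr11:97115497-97115552, minus strand), Ly6c2 (chr15:75112001-75112056, minus strand) and Cxcr3 (chrX:101734233-101734288, minus strand), higher in even-row cells, with Cxcr3 on the opposite strand.
Cd200: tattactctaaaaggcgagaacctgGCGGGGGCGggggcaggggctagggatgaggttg
Nr4a1: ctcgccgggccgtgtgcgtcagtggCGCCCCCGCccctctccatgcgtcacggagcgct
Bbc3: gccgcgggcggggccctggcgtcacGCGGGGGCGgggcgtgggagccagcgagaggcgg
Dusp2: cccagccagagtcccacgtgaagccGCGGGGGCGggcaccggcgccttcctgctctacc
Sox4: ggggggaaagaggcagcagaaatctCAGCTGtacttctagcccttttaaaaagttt
Itgb8: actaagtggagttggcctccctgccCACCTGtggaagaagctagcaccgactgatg
Rasgrp1: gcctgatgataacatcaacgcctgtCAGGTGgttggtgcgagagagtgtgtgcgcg
Itga4: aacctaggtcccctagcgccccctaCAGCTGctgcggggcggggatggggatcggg
Ifng: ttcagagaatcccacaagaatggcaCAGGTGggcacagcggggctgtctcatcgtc
Tbx21: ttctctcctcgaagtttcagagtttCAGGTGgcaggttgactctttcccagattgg
Ly6c2: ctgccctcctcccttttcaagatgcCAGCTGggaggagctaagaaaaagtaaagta
Cxcr3: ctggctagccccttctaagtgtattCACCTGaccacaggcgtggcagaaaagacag
All 12 windows lie before the start, and the match ended 29 bases from it for Cd200, 51 for Nr4a1, 40 for Bbc3, 89 for Dusp2, 205 for Sox4, 56 for Itgb8, 52 for Rasgrp1, 119 for Itga4, 218 for Ifng, 190 for Tbx21, 54 for Ly6c2 and 110 for Cxcr3.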

How the data were processed

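The authors deposited 1 filtered table of UMI counts for 32285 genes and 20 hashtag rows, made from a 10x 5′ V(D)J library and a hashtag library with Cell Ranger 6.0.0 on mm10, per the methods. Their Seurat processing was not used here. Counts of the chosen cells were summed per hashtag row, scaled by TMM and tested with edgeR 4.0.16 (glmQLFit and glmQLFTest after filterByExpr, R 4.3.3), with the row pair as a term. Row order, not a label, made the pairs. The 12 gate genes were not tested. DESeq2 1.42.0 was an alternative. Values over 4 pairs were tested with an exact two-sided sign-flip permutation test. No barcode was listed more than once. No doublet caller was run. Cells with mixed hashtags were left out, and a limit of 4000 genes was an alternative. Row totals were 682990 to 7185445 UMIs, and intervals cover counting error only.

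The cells, lists and tests were chosen with earlier results of these data known. The genes named were the 15 of largest fold in each direction among those called, at 50 CPM or more on average in the higher group and without overlap (leaving out ribosomal, Gm and receptor segment genes), up to 6 members of each list, and genes the study named. Chosen outside this rule, after their values were seen, were Egr1, Cd4, Eomes, Cd160, Trdc, Cd44, Ikzf1, Bcl2, Mcl1, Zbtb16, Gata3, Runx3, Klf7, Dusp2, Ccr9, Itga4, Ifngr2, Egr2, Nr4a3, Tcf7, Lef1, Tox, Itm2a, Tnfaip3, Tnfrsf18, Tnfrsf4, Nrgn, Tcrg-C1, Tcrg-C4, Cxcr4, Mki67, Klrk1, Klrd1, Bcl11b, Ier3, Orai2, Gadd45b, Cd74, Cst3, Foxp3, Ncr1 and Klrb1b. Irf4, Il17a and Il2, which were not tested, were also named outside this rule. Not every gene that was tested is reported here. Data were also simulated for this comparison over 9896 genes, 200 of them changed, with a gene counted at adjusted p under 0.05 at any size of difference. By this count the fit found 91.2% of genes changed 2-fold and 99.0% of those changed 4-fold, and 6.38% and 6.37% of the genes it counted were false. The simulation did not use the 2-fold limit, and 5766 genes passed that adjusted p in the data. Its rates therefore do not describe the calls reported above.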

Additional observations from a re-analysis of the deposited data

Results flagged for a closer look

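In 12 of 308 combinations of a gene and a group, 1 row lay far from the other 3 by Dixon's test at the 95% level, and chance alone gives about 1 in 20. In the Helios+ cells row 11 was the outlier for 7 genes. It was the highest row for Cd5 (463 against 319 to 338 CPM), Ifi27l2a (92.2 against 56.9 to 62.3 CPM), Klrd1 (35.1 against 8.01 to 11.9 CPM), Serpinb9 (45.4 against 4.79 to 8.26 CPM), Tnf (16.1 against 0.918 to 2.88 CPM) and Ube2c (438 against 314 to 327 CPM), and the lowest for Cd24a (239 against 311 to 320.3 CPM). Row 13 was the lowest for Ltb (194 against 247 to 257 CPM) and Orai2 (13.9 against 23.4 to 24.9 CPM), and row 17 the highest for Ccl5 (164 against 28.8 to 38.1 CPM). In the even-row cells row 16 was the highest for Cldn10 (3.63 against 1.27 to 1.67 CPM) and row 12 for Mctp1 (1.84 against 0.845 to 0.974 CPM).

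The 12 hashtag rows not in use held 25599 UMIs, against 34861260 on rows 11 to 18. Of these, row 1 held 12255 and row 4 held 11854 UMIs.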

How the results depend on the processing

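Of 151 named genes, 109 were tested in all of 19 alternatives and kept their direction and their side of the threshold, and 10 more did so where tested, Ikzf4, Ube2c and Ccnb2 among them. The other 32 changed: 26 lost a call in at least 1 setting with their direction kept, 2 (Egr1 and Eomes) gained one, and 5 turned sign. Cd4 is counted under both the first and the last. Where their sign turned, Cd4 and Rrm2 also lost their call. The log2 fold of Cd160 (-0.07) became 0.072 with at most 4000 genes per cell, 0.20 without cycling cells, 0.21 with library size scaling and 0.021 in thinned cells. Without the gates Cd4 went from -1.47 to 0.20 and Ikzf3 from 0.40 to -0.068. Without cycling cells Mxd4 went from -0.48 to 0.086 and Rrm2 from 1.57 to -0.37. The causes were not tested.

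Without cycling cells 1442 genes were called, 615 of them higher in Helios+ cells, from 8101 tested, and thinned cells gave 1456 and 665, from 8061 tested. Without a filter on low counts 1548 and 1500 genes were called, and DESeq2 called 1065 and 1114. Leaving out cells past both gates, a setting chosen after seeing the data, gave 877 and 1147. Leaving out 1 pair gave 1059 to 1200 genes higher in Helios+ cells, 1052 to 1239 in even-row cells and 2111 to 2439 in all. The mean Trav11 share of Helios+ cells was 0.380% without the gates against 0.173%, and 0.0882 to 0.231% without 1 pair, and that of even-row cells 29.2 to 30.6%. The G2/M share without thinning was 80.6% and 67.3% against 58.6% and 47.8%, and without 1 pair 57.1 to 60.1% and 47.4 to 48.6%. Of the lists, S phase genes moved from 10 called to 16 with library size scaling, 6 without cells past both gates, 5 in thinned cells and 4 with at most 4000 genes, and G2/M genes from 20 to 11 with at most 4000 genes.

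Without the replicate block 1066 and 1138 genes were called, and among named genes Fos, Gzmc, Tcrg-C4 and Xcl1 lost their call and Eomes gained one. The deviations of rows of a pair correlated at 0.101, 0.0834, 0.226 and 0.0595 over 3515 genes, so the pairing was not shown. Depth limits row 11, with 682990 UMIs, most.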

Other observations

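Within the even-row cells, rows 16 and 18 differed from rows 12 and 14 for some genes, both NK-related and other. Ncr1, which encodes the NK receptor NKp46, had 2, 6, 22 and 69 UMIs on rows 12, 14, 16 and 18, in 2, 4, 12 and 25 cells. Gzmc lay at 7.35, 13.5, 220.3 and 198 CPM and Klra9 at 719.5, 768, 284 and 299 CPM on the same rows. Of genes that are not NK-related, Junb was at 1238, 1307, 781 and 992 CPM and Klf3 at 161, 184, 94.8 and 110 CPM. Ikzf3 was at 227, 224, 166 and 181 CPM and Cd5 at 181, 206, 275 and 274 CPM. Id3 was at 60.1, 60.3, 107 and 89.5 CPM and Lgals1 at 388, 467, 803 and 758 CPM. These examples were picked after their values were seen. In mature T-KO iNKT cells against Ctrl the study reports lower Junb, Klf3, Ikzf3, Jun, Klf2, Cited2 and Phf1, and higher Id3, Cd5 and Mxd4. These genes lay in the same directions on rows 16 and 18 relative to rows 12 and 14. For Fos and Klf6, also reported as lower, row 18 lay above row 12 (277 against 271 and 277 against 257 CPM). Kidins220 was at 28.4, 34.9, 17.2 and 20.1 CPM on rows 12, 14, 16 and 18, levels that do not check any label. No label used here says what separates these rows, and whether genotype does was not tested.

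Irf4, a factor induced by TCR signals, had too few UMIs to be tested, with 1, 11, 7 and 4 UMIs in the Helios+ rows against 4, 12, 5 and 17 in the even rows. Il17a, the cytokine of iNKT17 cells, had no UMI in either group. Il2 had 60 UMIs in the even-row cells and 0 in the Helios+ cells.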
